A study of Mus musculus with 12 samples.

Results

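Neutrophils are short-lived white cells that enter an injured liver first and later take part in its repair. This report describes 10 genes of angiogenesis, TGF-beta signalling and tissue repair in those cells, namely Vegfa, Vegfb, Thbs1, Tgfb1, Tgfbr1, Tgfbr2, Smad3, Hbegf, Osm and Plaur. They were chosen by name, as the rows of the deposited count table whose Ensembl gene IDs carry these symbols in GRCm38. All 10 were found among 48709 gene rows, and 9 of them passed the filter on low counts that left 12488 genes for testing.

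The 12 libraries were made from neutrophils of young adult male C57BL/6N mice. There were 3 libraries of splenic neutrophils from mice that received nothing (control splenic neutrophils), 4 of liver neutrophils taken 24 hours after a single intraperitoneal injection of carbon tetrachloride (CCl4) in corn oil (24-hour neutrophils), and 5 of liver neutrophils taken 72 hours after it (72-hour neutrophils). CCl4 is a toxin that kills hepatocytes around the central veins, and the liver then clears and rebuilds the lost tissue. The spleens were dissociated mechanically, whereas the livers were also digested with enzymes at a warm temperature; all cells were enriched on anti-Ly6G beads and sorted as Ly6Ghi Ly6Cint CD11b+ CD45+. There was no liver library from uninjured mice, so that organ, digestion and injury cannot be told apart in either comparison with the spleen, and both of these comparisons share the same 3 control libraries. Nothing in the labels says that the libraries of a group came from separate mice, so the p-values measure the spread between these samples.

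The members act at successive steps of repair. Vegfa and Vegfb encode vascular endothelial growth factors, which bind receptors on endothelial cells; VEGF-A drives vessel growth, and VEGF-B is tied more to the survival of existing vessels. Thrombospondin-1, the product of Thbs1, is a matrix protein that restrains vessel growth and frees TGF-beta from its latent complex. TGF-beta 1 (Tgfb1) binds the type II receptor Tgfbr2, which recruits and phosphorylates the type I receptor Tgfbr1; that kinase in turn activates Smad3, which enters the nucleus with Smad4. In the liver this pathway turns stellate cells into matrix-producing cells and limits hepatocyte division. HB-EGF (Hbegf) is an EGF receptor ligand and oncostatin M (Osm) an interleukin 6 family cytokine, both known to act on hepatocytes and stellate cells, while Plaur encodes the urokinase receptor, which focuses plasminogen activation on the cell surface.

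Because Tgfbr1 and Tgfbr2 form 1 receptor yet had different values in these libraries, the 250 bases before their starts are shown, with Vegfa as the angiogenic ligand. RefSeq sequences of GRCm38.p6 were available for 7 of the 10 members; Thbs1, Hbegf and Osm had no entry. Letters in capitals mark matches on either strand to an AP-1 site (TGANTCA), a hypoxia response core (ACGTG), a SMAD box (CAGAC), a GC box (GGGCGG) or a CCAAT box (CCAAT). The windows lie at chr4:47352972-47353221 on the plus strand (Tgfbr1), chr9:116175364-116175613 on the minus strand (Tgfbr2) and chr17:46032378-46032627 on the minus strand (Vegfa), each written 5′ to 3′.
Tgfbr1: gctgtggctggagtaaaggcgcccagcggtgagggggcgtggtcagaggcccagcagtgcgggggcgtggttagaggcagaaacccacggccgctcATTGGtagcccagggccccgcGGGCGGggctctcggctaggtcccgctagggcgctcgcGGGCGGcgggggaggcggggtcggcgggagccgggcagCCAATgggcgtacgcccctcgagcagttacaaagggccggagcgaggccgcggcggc
Tgfbr2: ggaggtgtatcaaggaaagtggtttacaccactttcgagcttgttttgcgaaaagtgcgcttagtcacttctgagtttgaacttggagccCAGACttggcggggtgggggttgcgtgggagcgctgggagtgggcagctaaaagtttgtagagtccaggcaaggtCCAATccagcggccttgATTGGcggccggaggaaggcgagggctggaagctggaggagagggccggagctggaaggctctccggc
Vegfa: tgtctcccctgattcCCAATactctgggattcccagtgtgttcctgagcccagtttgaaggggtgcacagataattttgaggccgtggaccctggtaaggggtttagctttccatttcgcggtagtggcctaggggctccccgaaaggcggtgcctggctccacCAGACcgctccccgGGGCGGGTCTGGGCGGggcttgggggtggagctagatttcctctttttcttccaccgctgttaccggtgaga

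The Tgfbr1 window held 2 GC boxes and 2 CCAAT boxes, and the Tgfbr2 window held 2 CCAAT boxes, 1 SMAD box and 0 GC boxes. In the Vegfa window 2 SMAD boxes and 2 GC boxes lay within 86 bases of the start, and the second GC box overlapped the second SMAD box by its first base. Among all 32851 RefSeq windows of this length a GC box occurred in 32.7%, a CCAAT box in 33.8%, a SMAD box in 42.2%, an AP-1 site in 6.75% and the hypoxia core in 16.6%. These matches describe letters only. G and C made up 74.8% of the Tgfbr1 window, 58.4% of the Tgfbr2 window and 59.2% of the Vegfa window, against a median of 52.4% over all windows.

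Each library held 1267089 to 3017403 counts on genes, which were 2.71% to 3.18% of the uniquely aligned reads. A library with 1 count of a gene thus had 0.310 to 0.730 CPM of it. Of the uniquely aligned reads 96.8% to 97.3% were on no gene. On which strand the reads were counted is not known, and this limits every level given below, also levels of 0. CPM are counts relative to all counts on genes of the library, scaled by TMM factors to make libraries comparable. All 12 neutrophil markers passed the filter, but their summed level was 2124 CPM in control spleen replicate 3 and 7741 and 7755 in the other control libraries, 1482 to 3140 in 24-hour and 2707 to 4284 in 72-hour neutrophils. Markers of immature neutrophils summed to 2610 to 4672 CPM in the spleen, 884 to 1279 at 24 hours and 973 to 1528 at 72 hours, and 5 of 7 tested were lower in each liver group (Camp, Ltf, Ngp, Chil3 and Top2a). Early response genes, which are known to be induced when tissue is dissociated, summed to 544 to 773 CPM in the spleen, 1490 to 2214 at 24 hours and 2089 to 3940 at 72 hours, with 10 of 13 higher at 24 hours and 11 of 13 at 72 hours. Summed hepatocyte markers were 2.32 to 6.11, 14.9 to 20.2 and 4.54 to 35.9 CPM, with 1 of 5 tested higher in each liver group (Apoa2 at 24 hours and Fgg at 72 hours). At 72 hours 4 of these 5 had an unadjusted edgeR p below 0.05, and their median log2 fold change was 4.88. DESeq2 called 0 of them at 72 hours and limma-voom 1. Of all 12 hepatocyte markers, 10 had 0 counts in every spleen library, 7 in every 24-hour library and 1 in every 72-hour library. Libraries also lay apart within each group on the second principal component, a summary axis of differences between libraries (15.9% of the variance). Control replicates 1 to 3 lay at 42.8, 41.0 and 17.8, and 24-hour replicates 1 to 4 at 45.3, 47.9, 2.43 and -4.99. Within the 72-hour group, replicates 1, 2 and 3 (-53.4, -65.9 and -80.4) lay apart from replicates 4 and 5 (4.54 and 2.99). The share of reads without an alignment was 1.91% and 1.98% in 72-hour replicates 2 and 3 but 49.6% to 50.7% in the remaining libraries. The part of these differences in the results below was not tested.

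Oncostatin M and thrombospondin-1 were the members that rose in liver neutrophils at both times, and the type I TGF-beta receptor rose at 72 hours. Osm was 4.83-fold higher than in control splenic neutrophils at 24 hours and 7.37-fold higher at 72 hours, Thbs1 9.60-fold and 23.3-fold, and Tgfbr1 3.11-fold at 72 hours. By edgeR 0 members were lower in any comparison, also at an unadjusted p below 0.05 and by DESeq2 and limma-voom. In 24-hour neutrophils 2 of the 9 tested members were called, against 9.75% of all genes tested (5.35% higher and 4.4% lower); a call was an adjusted p below 0.05 in edgeR's quasi-likelihood test with Benjamini-Hochberg adjustment together with a log2 fold change of 0.5 or more in size. In 72-hour neutrophils 3 of the 9 were called, against 5.33% of all genes (2.63% higher and 2.71% lower). The members were chosen with earlier results of these data known, so such shares are a description here and below, not a test. On the log2 scale the tested members had a median difference from the spleen of 0.18 at 24 hours and 0.57 at 72 hours, beside -0.23 and -0.02 over all genes. As these are bulk libraries, fewer cells of a type and less RNA per cell cannot be told apart. Without control replicate 1 or without control replicate 2, the 24-hour count became 1 (Osm) and the 72-hour count 2 (Thbs1 and Osm).

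**Figure D1:**
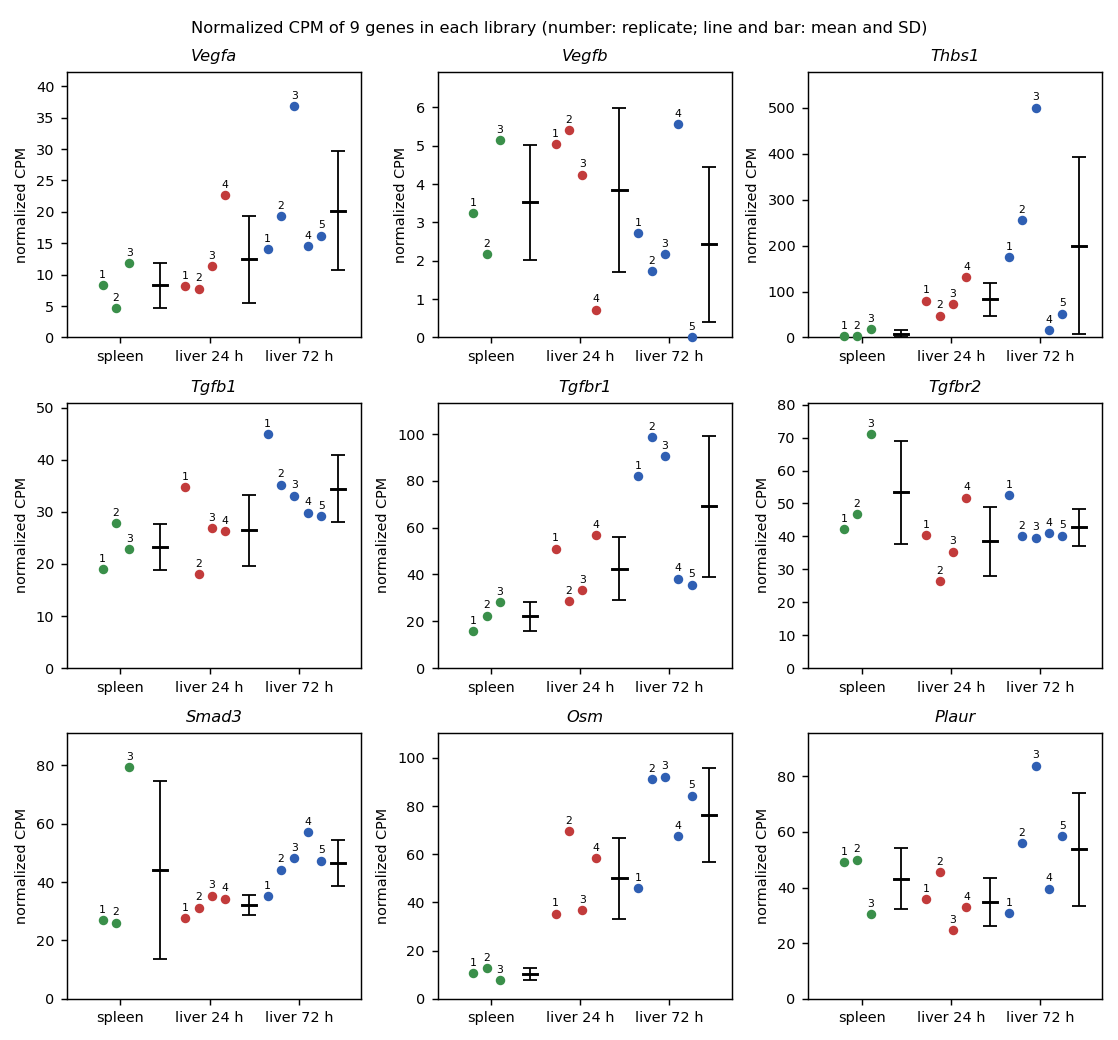
Normalized CPM of the 9 tested members in each library, one panel per gene with its own linear axis from 0; points are libraries numbered by replicate, and the line and bar beside them give the group mean and SD (n = 3 spleen, 4 liver 24 h, 5 liver 72 h). Osm lies at 7.72 to 12.7 CPM in the spleen and at 35.3 CPM or more in every liver library, while Thbs1 at 72 hours spreads from 16.7 to 500.2 CPM.

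Osm, the interleukin 6 family cytokine (ENSMUSG00000058755.3, GRCm38 chromosome 11, 4236420 to 4241026, plus strand), had the smallest adjusted p of the members at both times. Its levels were 10.7, 12.7 and 7.72 CPM in the 3 control libraries. In 24-hour neutrophils they were 35.3, 69.6, 36.8 and 58.4 CPM. In 72-hour neutrophils they were 46.1, 91.2, 92.2, 67.4 and 84.4 CPM. All 9 liver libraries were above all 3 control libraries, and the liver groups overlapped each other. The log2 fold change was 2.27 (SE 0.35, edgeR adjusted p = 0.000236) at 24 hours and 2.88 (SE 0.35, adjusted p = 1.44e-05) at 72 hours. Between the liver groups the difference was 0.61 (95% interval 0.04 to 1.18), which did not pass the adjustment (adjusted p = 0.207). Osm remained called against the spleen in every alternative run and without any single library, with log2 fold changes of 2.06 to 2.45 at 24 hours and 2.67 to 3.06 at 72 hours.

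Of 18 genes listed as the interleukin 6 family, its receptors and its signalling, 9 were tested; 2 were higher at 24 hours and 1 at 72 hours. Socs3, the feedback inhibitor of STAT3 signalling, rose by 1.02 (SE 0.26, adjusted p = 0.0133) at 24 hours, from a range of 50.5 to 110.4 CPM to one of 164.8 to 193.6. At 72 hours Socs3 was at 134.7 to 177.8 CPM, above all control libraries, but was not called by edgeR. At that time DESeq2 and limma-voom each called 2 genes of this list. Pim1, a kinase gene induced by STAT proteins, rose at both times by 2.28 and 2.30 on the log2 scale (adjusted p = 0.000134 and 9.76e-05); 488 of its exon bases are shared with a gene on the opposite strand. Stat3 itself had means of 64.7, 69.5 and 63.7 CPM in the 3 groups. Il6, Il11, Ctf1 and Cntf had 0 counts in all 12 libraries, and Osmr, which encodes the specific receptor subunit, had 0 counts in the spleen and at 24 hours.

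Thrombospondin-1 showed the widest range of the members. Thbs1 (ENSMUSG00000040152.8, chromosome 2, 118111876 to 118127133, plus strand) was at 3.71, 3.62 and 17.7 CPM in control splenic neutrophils. It was at 80.1, 47.4, 72.8 and 132.0 CPM in 24-hour neutrophils. In 72-hour neutrophils its levels were 175.1, 256 and 500.2 CPM in replicates 1 to 3 and 16.7 and 51.9 CPM in replicates 4 and 5. The 24-hour libraries were all above the control libraries, whereas 72-hour replicate 4 lay below control replicate 3, so these groups overlapped. The log2 fold change was 3.26 (SE 0.79, adjusted p = 0.0102) at 24 hours and 4.54 (SE 0.81, adjusted p = 0.00106) at 72 hours. At 24 hours the call was lost without control replicate 1 (2.94, adjusted p = 0.0639), without control replicate 2 (2.90, adjusted p = 0.0629) and under limma-voom (3.50, adjusted p = 0.0675), and without control replicate 3 the value was 4.48 (adjusted p = 0.00385). At 72 hours the call held without any single library, with values of 3.86 to 5.75, and the value was 3.25 (adjusted p = 0.00701) without 72-hour replicates 2 and 3.

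Thbs1 was not called between the liver groups (log2 fold change 1.28, 95% interval 0.03 to 2.52, adjusted p = 0.224). This value rested on which 72-hour libraries were used. It was -0.02 (adjusted p = 0.993) without replicates 2 and 3, 1.89 (adjusted p = 0.00635) without replicates 4 and 5, and 0.60 (adjusted p = 0.611) without replicate 3 alone. Platelets also carry thrombospondin-1. In order of replicate, the summed level of 10 platelet and megakaryocyte markers was 152, 164 and 270 CPM in the spleen. It was 126, 127, 237 and 202 CPM at 24 hours and 157, 166, 147, 317 and 232 CPM at 72 hours. Of the 4 tested, 0 was called by edgeR, DESeq2 or limma-voom or had an unadjusted p below 0.05. Ppbp, Gp5 and Treml1 had 0 counts in all libraries. Pf4 and Vwf had 0 counts in the spleen and at 24 hours but were detected at 72 hours. Gp1bb had 0 counts at 24 hours only. The part of platelet RNA in the level of Thbs1 was not tested.

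A second gene lies inside Thbs1 on the other strand. Gm29233 (ENSMUSG00000101859.1), a long noncoding RNA gene at chromosome 2, 118123451 to 118124047, minus strand, shares 208 of its 281 exon bases with Thbs1. Of these, 89 and 98 lie in coding exons 19 and 20 of the transcript Thbs1-201, and the rest in exon 2 of the transcript Thbs1-202. It held 8.67 to 41.5 times as many counts as Thbs1 in every library, with 88 to 619 counts in the spleen, 1922 to 5068 at 24 hours and 370 to 14005 at 72 hours. That ratio was 17.8 to 41.5 in 24-hour neutrophils and 8.67 to 15.4 in the other libraries, without overlap. Gm29233 rose by 4.61 (SE 0.78, adjusted p = 0.000587) at 24 hours and 4.40 (SE 0.76, adjusted p = 0.000817) at 72 hours, with -0.21 between the liver groups (adjusted p = 0.869). The kit kept strand, but the strand option of the counting is not given in the sources used here, so reads of Thbs1 and of Gm29233 cannot be told apart with certainty. The same limit holds for the level of every member: on which strand the reads were counted is not known, and 96.8% to 97.3% of the uniquely aligned reads were on no gene. None of the other 9 members has a gene on the opposite strand within its span.

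**Figure D2:**
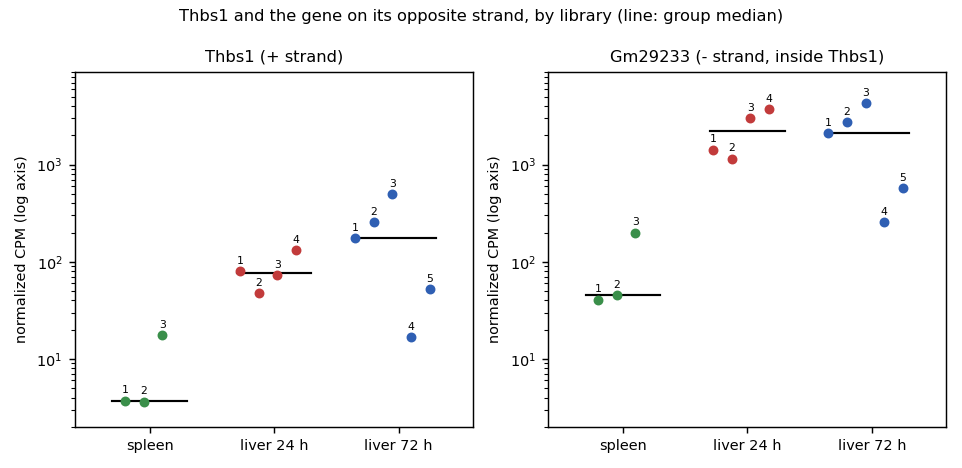
Normalized CPM of Thbs1 (left) and of the opposite-strand gene Gm29233 (right) in each library, on log axes of equal range; numbers are replicates and lines are group medians. By group median both genes are lowest in the spleen, and replicates 4 and 5 are the lowest of the 72-hour libraries for both, at 16.7 and 51.9 CPM for Thbs1. For Thbs1 72-hour replicate 4 lies below control replicate 3, which is at 17.7 CPM.

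Among the other angiogenic factors and thrombospondin receptors, 9 of 20 listed genes were tested; 1 was higher at 24 hours, 1 was higher and 1 lower at 72 hours, and 1 was higher and 1 lower between the liver groups. Ptgs2, the inducible cyclooxygenase of prostaglandin synthesis, was the gene called higher in each comparison. Its level was 2.17 to 5.57 CPM in the spleen, 37.2 to 148.8 at 24 hours and 157.7 to 739.1 at 72 hours, without overlap between any groups. The log2 fold changes were 4.41 (SE 0.61, adjusted p = 8e-05) and 6.59 (SE 0.64, adjusted p = 1.17e-06) against the spleen and 2.19 (SE 0.43, adjusted p = 0.00718) between the liver groups. Mmp8, the neutrophil collagenase of secondary granules, was lower at 72 hours than in the spleen (-2.23, SE 0.49, adjusted p = 0.00614), with overlapping ranges of 84.9 to 268.6 and 25.7 to 98.0 CPM. Prok2, the prokineticin Bv8 that neutrophils can release to act on vessels, was lower at 72 than at 24 hours (-4.21, SE 1.04, adjusted p = 0.0238), from 2 to 51 counts to 0 to 7 counts per library, so that its fold is poorly fixed. Between the liver groups DESeq2 called 1 gene of this list and limma-voom 2.

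The VEGF ligands were present at low levels and were not called in any comparison. Vegfa (ENSMUSG00000023951.16, chromosome 17, 46016993 to 46032369, minus strand) was at 8.35, 4.71 and 11.9 CPM in the spleen, at 8.20, 7.80, 11.3 and 22.6 CPM at 24 hours, and at 14.1, 19.3, 36.8, 14.6 and 16.2 CPM at 72 hours. All 5 libraries of 72-hour neutrophils were above all 3 control libraries. The difference was 1.29 on the log2 scale (95% interval 0.36 to 2.23), with an unadjusted p of 0.00902 and an edgeR adjusted p of 0.107. At 24 hours it was 0.56 (95% interval -0.43 to 1.55, adjusted p = 0.485), and between the liver groups it was 0.73 (95% interval -0.12 to 1.58, adjusted p = 0.321). Without 24-hour replicate 4 the 24-hour value was 0.12 (edgeR adjusted p = 0.917). That library held 147308 ambiguous reads, which matched more than 1 gene, against 9257 to 35212 in the others. Libraries of the 2 groups did not overlap for 4 of the 9 tested members at 72 hours (Vegfa, Tgfb1, Tgfbr1 and Osm) and 3 at 24 hours (Thbs1, Tgfbr1 and Osm), all higher in the liver, against 5.59% and 9.76% of all genes that were higher without overlap.

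Vegfb (ENSMUSG00000024962.13, chromosome 19, 6982473 to 6987651, minus strand) was close to the limit of detection, with 0 to 16 counts per library. Its mean was 3.52 ± 1.5 CPM (SD, n = 3) in the spleen, 3.85 ± 2.14 (n = 4) at 24 hours and 2.43 ± 2.02 (n = 5) at 72 hours, with overlapping groups. The log2 differences from the spleen were 0.13 (95% interval -1.45 to 1.72) and -0.57 (-2.09 to 0.95), so changes of either sign were compatible with the counts. Within each library Vegfa exceeded Vegfb on the log2 CPM scale, by 1.03 ± 0.15 in the spleen, 1.53 ± 1.55 at 24 hours and 2.79 ± 1.17 at 72 hours; this is a difference of CPM and not of level per length. Of 16 listed VEGF family, receptor and hypoxia genes, 9 were tested and 1 was called, Egln3, a prolyl hydroxylase that marks HIF for degradation. It rose by 2.35 (SE 0.72, adjusted p = 0.0414) at 24 hours, from 2 to 4 counts per library to 3 to 18. At 24 hours limma-voom called 0 genes of this list and DESeq2 1. The endothelial receptor genes Kdr and Flt4 had 0 counts in all libraries.

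In the TGF-beta pathway the ligand and the signal transducer were not called, and the type I receptor was. Tgfb1 (ENSMUSG00000002603.15, chromosome 7, 25687002 to 25705077, plus strand) was at 19.0, 27.9 and 22.8 CPM in the spleen, 34.7, 18, 26.9 and 26.3 CPM at 24 hours, and 45.0, 35.2, 33.1, 29.9 and 29.2 CPM at 72 hours. The 72-hour libraries were all above the control libraries by a small margin. The log2 difference was 0.57 (95% interval -0.04 to 1.18, adjusted p = 0.342) at 72 hours and 0.18 (95% interval -0.46 to 0.82, adjusted p = 0.759) at 24 hours. Of 19 TGF-beta ligands and activators of the list 6 were tested and 0 was called by edgeR in any comparison, with 1 at an unadjusted p below 0.05 in each; limma-voom called 1 at 24 hours and DESeq2 called 0. Tgfb3, Inhbb, Bmp2, Bmp4 and Bmp6 had 0 counts in all libraries.

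Tgfbr1, the type I receptor (ENSMUSG00000007613.15, chromosome 4, 47353222 to 47414931, plus strand), was at 15.8, 22.5 and 28.3 CPM in the spleen. Its levels were 51.1, 28.8, 33.2 and 56.9 CPM at 24 hours. At 72 hours they were 81.9, 98.8 and 90.7 CPM in replicates 1 to 3 and 38.2 and 35.7 CPM in replicates 4 and 5. Every liver library was above every control library, and the same split of the 72-hour group as for Thbs1 was seen. The log2 fold change was 0.93 (95% interval 0.14 to 1.71, adjusted p = 0.122) at 24 hours and 1.64 (SE 0.37, adjusted p = 0.00787) at 72 hours. At 72 hours the call was lost without control replicate 1 (1.45, adjusted p = 0.0761), without control replicate 2 (1.64, adjusted p = 0.0507) and without 72-hour replicates 2 and 3 (1.23, adjusted p = 0.109), and the value was 2.02 (adjusted p = 0.000131) without 72-hour replicates 4 and 5. The 24-hour value was 0.94 (adjusted p = 0.0396) when 72-hour replicates 4 and 5 were left out of the shared fit. Between the liver groups the difference was 0.71 (95% interval 0.04 to 1.38, adjusted p = 0.209), and 1.08 (adjusted p = 0.0215) without 72-hour replicates 4 and 5.

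Tgfbr2, the type II receptor that binds the ligand (ENSMUSG00000032440.12, chromosome 9, 116084293 to 116175360, minus strand), was at 42.2, 46.8 and 71.1 CPM in the spleen, 40.4, 26.4, 35.4 and 51.8 CPM at 24 hours and 52.6, 40.1, 39.6, 41.0 and 40.2 CPM at 72 hours. The 3 groups overlapped. The log2 differences from the spleen were -0.48 (95% interval -1.07 to 0.12, adjusted p = 0.301) and -0.32 (95% interval -0.89 to 0.24, adjusted p = 0.626). Set against each other within a library, the receptors differed in their balance between spleen and liver. Tgfbr1 minus Tgfbr2 on the log2 CPM scale was -1.37, -1.03 and -1.30 in the control libraries. It was 0.33, 0.12, -0.09 and 0.13 in 24-hour neutrophils and 0.63, 1.28, 1.18, -0.10 and -0.17 in 72-hour neutrophils. The lowest liver value, -0.17, was above the highest control value, -1.03, and the liver groups overlapped each other. Scaling of a library acts alike on both genes, and the difference is a description without a test.

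**Figure D3:**
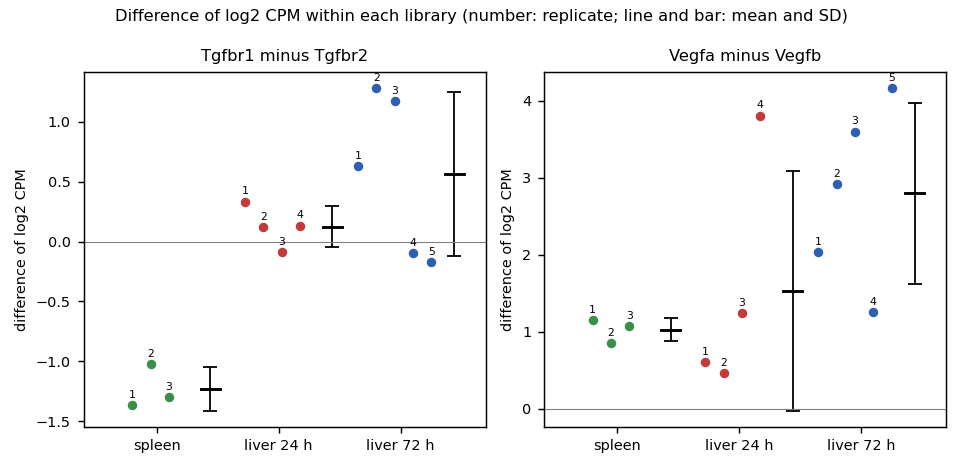
Difference of log2 CPM within each library for Tgfbr1 minus Tgfbr2 (left) and Vegfa minus Vegfb (right); points are libraries numbered by replicate, and the line and bar give the group mean and SD. The receptor difference lies between -1.37 and -1.03 in the spleen and between -0.17 and 1.28 in the liver, whereas the VEGF difference at 24 hours, 0.46 to 3.80, overlaps both other groups, and at 72 hours, 1.25 to 4.16, lies above the spleen.

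Smad3, which carries the receptor signal to the nucleus (ENSMUSG00000032402.12, chromosome 9, 63646767 to 63757994, minus strand), changed sign against the spleen when single libraries were left out. It was at 26.9, 26.1 and 79.4 CPM in the spleen, 27.8, 31.2, 35.4 and 34.3 CPM at 24 hours and 35.2, 44.2, 48.3, 57.0 and 47.4 CPM at 72 hours. Control replicate 3, the library with the low sum of neutrophil markers, was the highest of all 12. The log2 differences from the spleen were -0.47 (95% interval -1.18 to 0.25, adjusted p = 0.415) and 0.06 (95% interval -0.61 to 0.74, adjusted p = 0.963), and without control replicate 3 they were 0.28 and 0.80. Between the liver groups the difference was 0.53 (95% interval -0.11 to 1.17, adjusted p = 0.338), and it stayed above 0 in every alternative run.

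Around these members, 2 other receptor genes were lower and 3 regulators of SMADs higher in 72-hour neutrophils. Of 10 TGF-beta family receptors 6 were tested, with 1 lower at 24 hours, 2 lower at 72 hours and 0 higher. Acvrl1, the type I receptor ALK1 known from endothelium, fell from 27 to 112 counts per library in the spleen to 0 to 10 at 24 hours (log2 fold change -3.04, adjusted p = 0.00418) and 0 to 4 at 72 hours (-5.25, adjusted p = 4.38e-05); its 72-hour counts are so few that this fold is poorly fixed. Bmpr1a, a type I receptor for bone morphogenetic proteins, fell by 2.27 on the log2 scale at 72 hours (SE 0.47, adjusted p = 0.00402). Both genes share exon bases with a gene on the opposite strand, 127 for Acvrl1 and 290 for Bmpr1a.

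Of 16 SMADs and SMAD regulators 11 were tested, of which 3 were higher at 72 hours and 0 were called by edgeR at 24 hours, where 3 had an unadjusted p below 0.05 and DESeq2 called 1 and limma-voom 0. Smad7, the inhibitory SMAD that targets the type I receptor, rose from 0.725 to 3.25 CPM in the spleen to 4.49 to 13.5 CPM at 72 hours (log2 fold change 2.24, SE 0.61, adjusted p = 0.0322). It had only 2 to 7 counts per library in the spleen, so that this fold is poorly fixed. Skil, the SMAD corepressor SnoN, rose by 1.61 (SE 0.39, adjusted p = 0.0148) and Tgif1, another corepressor, by 2.22 (SE 0.66, adjusted p = 0.0496), both with overlapping groups. At 72 hours limma-voom called 2 genes of this list and DESeq2 3. Smad2 and Smad4 had means of 16.6 and 10.5 CPM in the spleen and 17.4 and 15.4 CPM at 72 hours and were not called. Of 10 TGF-beta target genes 5 were tested and 0 was called by edgeR, DESeq2 or limma-voom in any comparison, with 1 at an unadjusted p below 0.05 against the spleen at each time. Tgfbi, an induced matrix protein gene, had means of 73.6, 113.7 and 124.5 CPM.

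Hbegf was all but undetected. The gene (ENSMUSG00000024486.5, chromosome 18, 36504927 to 36515805, minus strand) had 0 counts in 10 of 12 libraries, 1 count in 72-hour replicate 1 and 2 counts in 72-hour replicate 2. It did not pass the filter and was tested by an exact two-sided permutation test on CPM, which gave p = 0.4643 for 72 hours against the spleen over 56 assignments, p = 0.4444 for 72 against 24 hours over 126 assignments, and p = 1 for 24 hours against the spleen, where all libraries were at 0. A count of 0 allows up to 3 counts, or 0.928 to 2.19 CPM depending on the library, so that lower levels could not be seen at this depth. Of 16 genes of the EGF family, its receptors and its sheddases 4 were tested and 1 was called. Egf, Tgfa, Areg, Btc and Nrg1, which encode other EGF family ligands, had 0 counts in all libraries. Cd9, a tetraspanin known to bind membrane-anchored HB-EGF, was higher at 72 hours (log2 fold change 1.71, SE 0.49, adjusted p = 0.0445), with overlapping ranges of 7.72 to 15.2 CPM and 6.95 to 59.4 CPM. At 72 hours limma-voom called 0 genes of this list and DESeq2 2.

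Plaur, the urokinase receptor gene (ENSMUSG00000046223.10, chromosome 7, 24462484 to 24475968, plus strand), was not called in any comparison. It was at 49.2, 50.02 and 30.5 CPM in the spleen, 36, 45.6, 24.8 and 32.8 CPM at 24 hours and 30.9, 56.0, 83.9, 39.6 and 58.4 CPM at 72 hours. The groups overlapped throughout. The log2 differences were -0.31 (95% interval -0.995 to 0.38, adjusted p = 0.594) and 0.32 (95% interval -0.33 to 0.98, adjusted p = 0.698) against the spleen and 0.63 (95% interval 0.02 to 1.25, adjusted p = 0.222) between the liver groups. Its ligand Plau had means of 4.31, 1.75 and 0.949 CPM and was not called. Of 17 genes of plasminogen activation and urokinase receptor partners 9 were tested, and 2 were called. Itgb1, the beta 1 integrin through which the receptor can signal, rose from 4.18 to 11.6 CPM in the spleen to 29.7 to 48.1 CPM at 24 hours and 20.8 to 57.6 CPM at 72 hours (log2 fold changes 2.16 and 2.25, adjusted p = 0.00211 and 0.00125). Lrp1, the scavenger receptor that clears urokinase receptor complexes, rose by 1.31 (SE 0.39, adjusted p = 0.0477) at 72 hours. At that time limma-voom called 1 gene of this list and DESeq2 2.

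**Figure D4:**
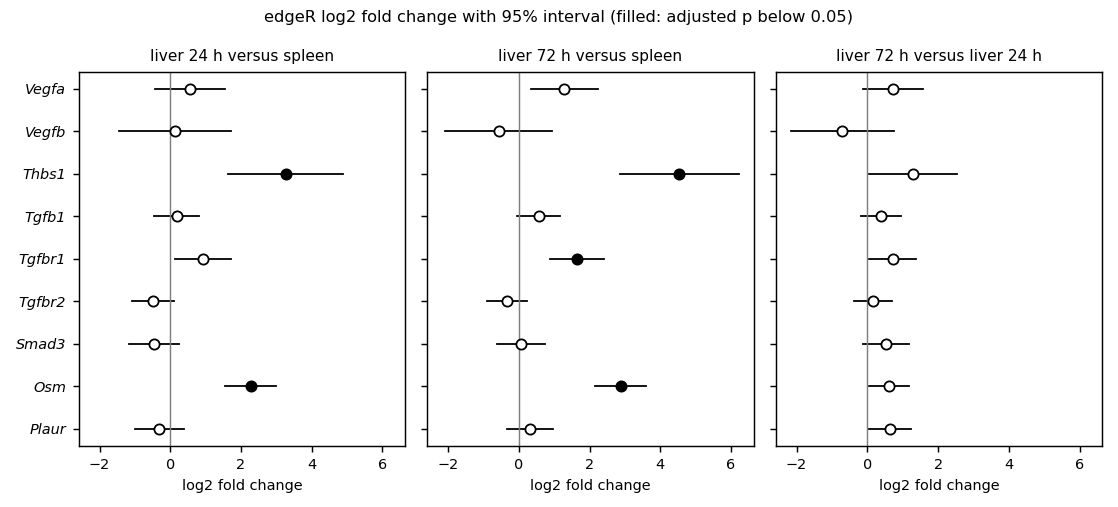
Log2 fold change (horizontal axis) with its 95% interval for the 9 tested members in the 3 comparisons, from edgeR; filled points have an adjusted p below 0.05. Filled points are Thbs1 and Osm at 24 hours and Thbs1, Tgfbr1 and Osm at 72 hours, and the comparison between the liver groups has none.

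Between 24 and 72 hours no member passed the test. Of the 9 tested members 0 were called by edgeR, 0 by DESeq2 and 0 by limma-voom, while 4.49% of all genes were called by edgeR. An unadjusted p below 0.05 was reached by 4 members (Thbs1, Tgfbr1, Osm and Plaur), all higher at 72 hours, against 20.9% of all genes. The median log2 difference of the tested members was 0.61, and that of all genes 0.18. For none of the 9 were the libraries of the liver groups apart, against 9.51% of all genes.

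Of the 17 other repair factors listed 14 were tested. Il1rn, the interleukin 1 receptor antagonist, rose by 1.66 (SE 0.35, adjusted p = 0.00372) at 24 hours and 1.76 (SE 0.34, adjusted p = 0.00201) at 72 hours. Anxa1, the pro-resolving annexin A1, fell by 2.03 (SE 0.45, adjusted p = 0.00612) and 2.12 (SE 0.42, adjusted p = 0.00282), with overlapping groups, since control replicate 3 had 152.1 CPM and the median of the controls was 580.8. Tgm2, a transglutaminase that crosslinks matrix and can help to activate latent TGF-beta, rose by 2.78 (SE 0.60, adjusted p = 0.00598) at 72 hours, but 1003 of its exon bases are shared with a gene on the opposite strand. Its groups overlapped, with 9.79 to 17.4 CPM in the spleen and 9.73 to 202.4 CPM at 72 hours. Cxcr4, the receptor that guides neutrophils back to the bone marrow, was at 50.8 to 58.0 CPM in the spleen, 18.9 to 66.5 at 24 hours and 84.1 to 193.4 at 72 hours. It was higher at 72 hours than in the spleen (1.21, SE 0.35, adjusted p = 0.046) and than at 24 hours (1.78, SE 0.33, adjusted p = 0.00438). Of these repair factors edgeR called 3 higher and 1 lower at 72 hours against the spleen, and limma-voom called 3 and DESeq2 4. Over the 10 pathway lists, 82 of 159 genes were tested; 6 were higher and 2 lower at 24 hours (9.76% called), 11 were higher and 4 lower at 72 hours (18.3%), and 2 were higher and 1 lower between the liver groups (3.66%), beside 9.75%, 5.33% and 4.49% of all genes. The median log2 fold changes of the list genes were 0.07, 0.08 and 0.08. The lists were chosen with earlier results of these data known, so these shares are a description and not a test.

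Per length of exon, the order of the members changed between spleen and liver. On the scale of normalized CPM per kilobase of exon, Plaur was highest in control splenic neutrophils at 16.5 ± 4.21 (SD, n = 3), followed by Smad3 at 7.97 ± 5.51 and Tgfbr2 at 6.52 ± 1.89, whose order was within the spread of Smad3. In control replicates 1 and 2 Smad3, at 4.85 and 4.71, was below Tgfbr2, at 5.16 and 5.71, and in replicate 3 it was above, at 14.3 against 8.68. Tgfb1 and Osm were closer to each other than their SDs, at 4.61 and 4.56, as were Vegfb, Vegfa and Thbs1 at 2.19, 1.94 and 1.37, with Tgfbr1 between them at 3.39 and Hbegf at 0. In 24-hour neutrophils Osm was highest at 22.0 ± 7.38 (n = 4), and Thbs1 at 13.7 ± 5.85 and Plaur at 13.3 ± 3.29 did not differ beyond their spread; the other members were at 6.51 or less. In 72-hour neutrophils Osm was at 33.6 ± 8.62 (n = 5), Thbs1 at 32.9 ± 31.8 and Plaur at 20.5 ± 7.78, and the order among these 3 was within the spread of Thbs1. Below them came Tgfbr1 at 10.6 ± 4.58, Smad3 at 8.38 ± 1.41, Tgfb1 at 6.84 ± 1.26, Tgfbr2 at 5.22 ± 0.678, Vegfa at 4.72 ± 2.22 and Vegfb at 1.52 ± 1.26, and of these neighbours Tgfbr1 and Smad3, and Tgfbr2 and Vegfa, differed by less than the larger of their SDs. By its mean Osm moved from the fifth place to the first, and Thbs1 from the ninth to the second.

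For the 3 called members, the genes with the most similar pattern were named by Pearson's r of log2 CPM over the 12 libraries, which share the group differences and library depths and are given without a test. Osm was closest to Cxcl2, a neutrophil-attracting chemokine (r = 0.946), Junb, an AP-1 subunit (r = 0.936), and Gm37347 (r = 0.932). Tgfbr1 was closest to Mpeg1, the pore-forming perforin-2 (r = 0.970), Pmaip1, which encodes the apoptosis protein Noxa (r = 0.952), and Ppp1r15a, the stress-induced phosphatase subunit GADD34 (r = 0.924). Thbs1 was closest to Dusp5, a phosphatase that turns off ERK (r = 0.963), Gm20612 (r = 0.961) and Zfp710, a zinc finger protein gene (r = 0.958). Of these, Dusp5 shares 547, Junb 173, Zfp710 97 and Ppp1r15a 12 exon bases with a gene on the opposite strand.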

How the data were processed

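RNA of sorted neutrophils was sequenced in 12 libraries made with a stranded kit. The authors aligned the reads to GRCm38 (STAR 2.7.9a, per the submitters' processing notes), used HTSeq-count to count reads on each gene, and deposited these counts, whole and not normalized, as 1 table. The strand option is not given in the sources used here, so it is not known whether reads were counted on the strand of the gene or on the opposite one, which bears on the level of every gene. The 5 rows that name no gene entered neither totals nor fits; they include reads on no gene, 96.8% to 97.3% of the uniquely aligned ones.

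Groups were taken from the sample labels. Genes with more than 1 CPM in at least 3 libraries were kept, scaled by TMM and tested by quasi-likelihood (edgeR 4.0.16 in R 4.3.3). A single model held all libraries, and p-values were adjusted by Benjamini-Hochberg over 12488 genes. Log2 CPM used a prior count of 2. IDs were matched with the version removed (48349 of 48709 rows) to GENCODE for names, exon lengths and opposite-strand exons, which 4972 of the tested genes have. Hbegf, under the filter, was tested by exact permutation. Alternatives were DESeq2 1.42.0 (size factors, Wald test), limma-voom 3.58.1 (the study's test), upper-quartile scaling, other filters and fold limits, fits of 2 groups, a replicate block, genes without an opposite-strand gene, and leaving libraries out. The code was tested on simulated data.

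All members were named, with pathway list genes that were called and, for each called member, the 3 genes of highest Pearson's r. The members and lists were chosen with earlier results of these data known. No library was a copy of another. Control replicates 1 and 2 were the closest pair within a group, with a chi-square per degree of freedom of 2.34 between their counts. The other pairs within a group were at 5.63 to 34.0. Intervals cover the spread between libraries, and the floor of 3 counts covers counting error only.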

Additional observations from a re-analysis of the deposited data

Results flagged for a closer look

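Among 20 groups of 4 or 5 libraries of the members, 2 had a library far from the others by Dixon's test; chance gives about 1 in 20. Vegfa in 72-hour replicate 3 was at 36.8 CPM, with 14.1 to 19.3 CPM in the other 72-hour libraries. Tgfbr2 in 72-hour replicate 1 was at 52.6 CPM, with 39.6 to 41.0 CPM in the others.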

How the results depend on the processing

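Osm kept its direction and call against the spleen in all alternatives. The number of members called at 24 hours was 1 to 2 when single libraries were left out, 1 under limma-voom and 1 among genes without an opposite-strand gene, where Thbs1 is not tested; at 72 hours it was 2 to 3. Between the liver groups it was 1 without a filter on low counts (Thbs1) and 2 without 72-hour replicates 4 and 5. All genes called at 24 hours numbered 1218, with 575 to 1320 when single libraries were left out and 552 without opposite-strand genes. At 72 hours they numbered 666, with 314 to 835, 360 and 287 without 72-hour replicates 2 and 3, and 1173 without replicates 4 and 5. Between the liver groups they numbered 561, with 182 to 796, 143, 197 and 848 in the same order and 986 under DESeq2. Fewer genes (7485) were tested without opposite-strand genes; the other causes were not tested.

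Members that turned their sign were none of those called in that comparison. Leaving out single libraries moved Smad3 from -0.74 to 0.28 at 24 hours and from -0.21 to 0.80 at 72 hours, and Vegfb from -0.12 to 0.52 at 24 hours. Without 72-hour replicates 2 and 3, Plaur was at -0.0084 against the spleen and Thbs1 at -0.018 between the liver groups; without replicates 4 and 5, Smad3 was at -0.046 against the spleen; and among genes without an opposite-strand gene Tgfbr2 was at -0.024 between the liver groups. Same-numbered libraries did not deviate together (1 of 10 pairs had r above 0.1, and 2 of 12 libraries were closest to their own number), and with a replicate block 2, 3 and 0 members and 1302, 874 and 599 genes were called. Pairs of unlike number had r of -0.153 to 0.161. Control replicate 3 had r of 0.157 with 24-hour replicate 4 and 0.161 with 72-hour replicate 4, but -0.153 and -0.138 with 24-hour replicates 1 and 2. A block by number cannot take up such likeness, so a batch shared across numbers was not tested.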

Other observations

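Other cell type markers were low and mostly under the filter. Of endothelial markers 6 of 9 were tested, of stellate cell markers 2 of 8, of macrophage and monocyte markers 4 of 12, of B cell markers 3 of 7, of T and NK cell markers 1 of 9 and of erythroid markers 1 of 8, and edgeR called none of them in any comparison. Of these 17 genes, 5 had an unadjusted p below 0.05 at 24 hours, 2 at 72 hours and 1 between the liver groups; DESeq2 called 1 B cell marker at 24 hours and 1 between the liver groups, and limma-voom called 0. Summed macrophage and monocyte markers were at 92.1 to 152.4 CPM in the spleen, 135.0 to 205.8 at 24 hours and 125.1 to 189.1 at 72 hours, and the Kupffer cell gene Clec4f had 0 counts in all libraries. Of the 12 neutrophil markers, 3 were lower (S100a8, S100a9 and Cd177) and 0 higher at 24 hours than in the spleen. At 72 hours 4 were lower and 2 higher than in the spleen. Between the liver groups 2 were higher at 72 hours and 0 lower. Il1b was higher at 72 hours than in the spleen (log2 fold change 2.14) and than at 24 hours (1.71). Csf3r, the G-CSF receptor gene, was higher at 72 than at 24 hours (0.77).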
